A study of Mus musculus with 6 samples.

Results

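Chemokines are small secreted or membrane-tethered proteins that direct the migration of leukocytes, and chemokine receptors are the G protein-coupled receptors through which cells sense them. The genes described here are those whose symbols begin with Ccl, Cxcl, Ccr or Cxcr and a number, or with Cx3c, together with Xcl1 and Xcr1. The files list 59 of them among 22609 genes, 39 for ligands and 20 for receptors. A change between genotypes was computed for the 23 with at least 10 counts in 3 or more libraries, 15 ligands and 8 receptors. Of the other 36, 12 had no count in any library and 24 had few.

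RNA was sequenced from adult livers of C57BL/6 mice, 3 libraries from Igfbp7 knockout mice (IGFBP7 knock-out in the labels) and 3 from wild type mice. Igfbp7 encodes a secreted protein that binds insulin-like growth factors and is found in the matrix around vessels. The knockout was made with Cre and loxP, and the sources used here do not give the promoter that drove Cre, the sex of the mice or whether each library came from its own animal. The p-values measure only the spread between these libraries, which may be technical.

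In liver, chemokines come from hepatocytes, Kupffer cells (the resident macrophages), sinusoidal endothelial cells, stellate cells and leukocytes. Ligands with paired cysteines next to each other (CC) mostly attract monocytes, T cells and eosinophils. Of the ligands with a residue between those cysteines (CXC), some attract neutrophils and others, such as Cxcl12 and Cxcl13, act on other cells. Cxcl9, Cxcl10 and Cxcl11 attract the activated T and NK cells that carry Cxcr3. Interferon-gamma induces these last ligands. Receptors are mostly expressed by the leukocytes themselves.

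Gene counts per library ran from 18912701 to 22419411 in knockout livers and from 16712568 to 21478524 in wild type livers. Igfbp7 had 5, 2 and 9 counts in knockout livers, against 1438, 1705 and 1055 in wild type livers, as the labels say. The hepatocyte markers were abundant in every library, with Alb at 65365 to 85428 CPM in knockout livers and 61026 to 78676 CPM in wild type livers, where CPM are counts scaled to a common library size. Wild type replicate 1 stood apart in its circadian genes. A clock score was 3.64, 4.22 and 4.03 in knockout livers, against 0.144, 2.92 and 3.39 in wild type livers. This score is the mean log2 CPM of 9 evening genes minus that of 5 morning genes. Every knockout score lay above every wild type score, so a fit with the score as a covariate only partly separates it from genotype.

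The promoters of the CXCR3 ligand genes Cxcl9 and Cxcl10 are shown because these genes held the lowest p-values among the members and lie near each other on mouse chromosome 5. Each sequence is the 250 bases before the RefSeq start site (GRCm38.p6, minus strand), at chr5:92328080-92328329 for Cxcl9 and chr5:92348890-92349139 for Cxcl10. The gene counts came from another build, and the genes were matched by symbol. Capitals mark matches to GAAANNGAAA, the core of the interferon-stimulated response element, and to GGGNNNNNCC, a loose form of the NF-kB site.
Cxcl9: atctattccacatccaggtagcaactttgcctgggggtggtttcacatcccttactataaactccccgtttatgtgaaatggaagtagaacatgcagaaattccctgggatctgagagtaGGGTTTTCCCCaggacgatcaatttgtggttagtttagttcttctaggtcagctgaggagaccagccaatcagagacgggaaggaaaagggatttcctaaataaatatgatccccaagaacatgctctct
Cxcl10: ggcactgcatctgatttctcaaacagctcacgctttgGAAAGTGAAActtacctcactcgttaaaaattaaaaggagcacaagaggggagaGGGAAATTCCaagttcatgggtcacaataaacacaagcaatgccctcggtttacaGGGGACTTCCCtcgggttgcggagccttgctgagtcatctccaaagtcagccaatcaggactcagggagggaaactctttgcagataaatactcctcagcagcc

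In the Cxcl10 window the interferon element lies at -213 to -204 and the NF-kB letters at -159 to -150 and -104 to -94, counted from the start site. In the Cxcl9 window the NF-kB letters lie at -130 to -120, where overlapping matches on both strands share the stretch. Neither window holds TTCNNNGAA, the gamma-activated site of interferon-gamma signalling. Both strands were searched in 32851 promoter windows of this length, of which 2.98% held the interferon element, 7.02% the gamma-activated site and 45.8% the loose NF-kB letters. Windows were found for 43 of the 59 genes, and the interferon element occurred in those of Ccl19, Cxcl10 and Cxcl14. The gamma-activated site occurred in those of Ccl17, Ccr1l1, Ccr6 and Cxcl14, and the NF-kB letters in 52% of the 50 windows of these 43 genes. A match is a run of letters and not a measured binding site, and Cxcl11 has no window in the table.

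Of the 3 CXCR3 ligands, Cxcl9 fell in the knockout livers, Cxcl10 differed by a similar size without passing the threshold, and Cxcl11 lay in the other direction, also without passing. Cxcl9, the ligand whose induction depends most on interferon-gamma, stood at 7.0, 6.55 and 7.46 CPM in knockout livers, against 15.1, 15.4 and 13.3 CPM in wild type livers. The highest knockout library was well under the lowest wild type library. The log2 fold change, knockout over wild type, was -1.06 ± 0.12 (SE, edgeR quasi-likelihood adjusted p = 0.0255 over the 12594 genes tested). Cxcl9 was the only member past the threshold of 0.05 among the 23 tested, where 0.0873% of all tested genes were called lower and 0.127% higher. In whole liver RNA, fewer cells of a type and less RNA per cell cannot be told apart.

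The size of the Cxcl9 difference moved little between fits. Its call was often lost when 1 library was left out, which also removes degrees of freedom. With each library left out in turn the log2 fold change ran from -1.12 to -1.02, and the call was lost in 5 of these 6 fits. The edgeR adjusted p was 0.0535, 0.0759 and 0.0521 without knockout replicate 1, 2 or 3, and 0.106, 0.13 and 0.0378 without wild type replicate 1, 2 or 3. With the clock score as a covariate the value was -1.0 ± 0.17 (SE, edgeR adjusted p = 0.272). The adjusted p was 1.2e-07 with DESeq2, 0.00752 in edgeR with no filter and 0.0312 with limma-voom. Of the 13 alternatives, 6 called Cxcl9 and 7 did not.

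Cxcl10, induced by interferons of both types and by NF-kB, had 2.04, 1.64 and 1.67 CPM in knockout livers, against 3.93, 4.07 and 3.69 CPM in wild type livers. Again no knockout library reached a wild type one, which held for 10% of all tested genes. The log2 fold change was -1.13 ± 0.19 (SE, edgeR adjusted p = 0.0592), which passed with DESeq2 (adjusted p = 0.00304) and in edgeR with no filter (adjusted p = 0.0318). DESeq2 called 1.61% of all tested genes lower and 1.79% higher, and among the members it called Cxcl9 and Cxcl10 alone. In GRCm38 the gene shares 133 exonic bases with Art3 on the opposite strand, itself at 1.5 ± 0.41 CPM in knockout livers and 1.77 ± 0.56 CPM in wild type livers (SD, n = 3 each).

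Cxcl11 had 1.66, 2.84 and 2.35 CPM in knockout livers, against 2.13, 0.608 and 1.27 CPM in wild type livers, and the groups overlapped. Its log2 fold change was 0.78 ± 0.41 (SE, edgeR adjusted p = 0.408). It was 0.41 when wild type replicate 2 was left out, 1.30 when wild type replicate 1 was left out and 1.44 when the clock score was a covariate. C57BL/6 mice are known to carry a frameshift in Cxcl11, so the transcript is not thought to give the protein in this strain. The gene also shares 1582 of its 3794 annotated exonic bases with the processed pseudogene Gm2673 on the opposite strand, and reads from such a stretch cannot be assigned without a strand setting. Cxcr3, the receptor for these ligands, had 5, 4 and 8 counts in knockout livers, against 14, 11 and 4 in wild type livers, too few to pass the filter. In the fit with no filter its log2 fold change was -0.81 ± 0.53 (SE, edgeR adjusted p = 0.587).

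**Figure D1:**
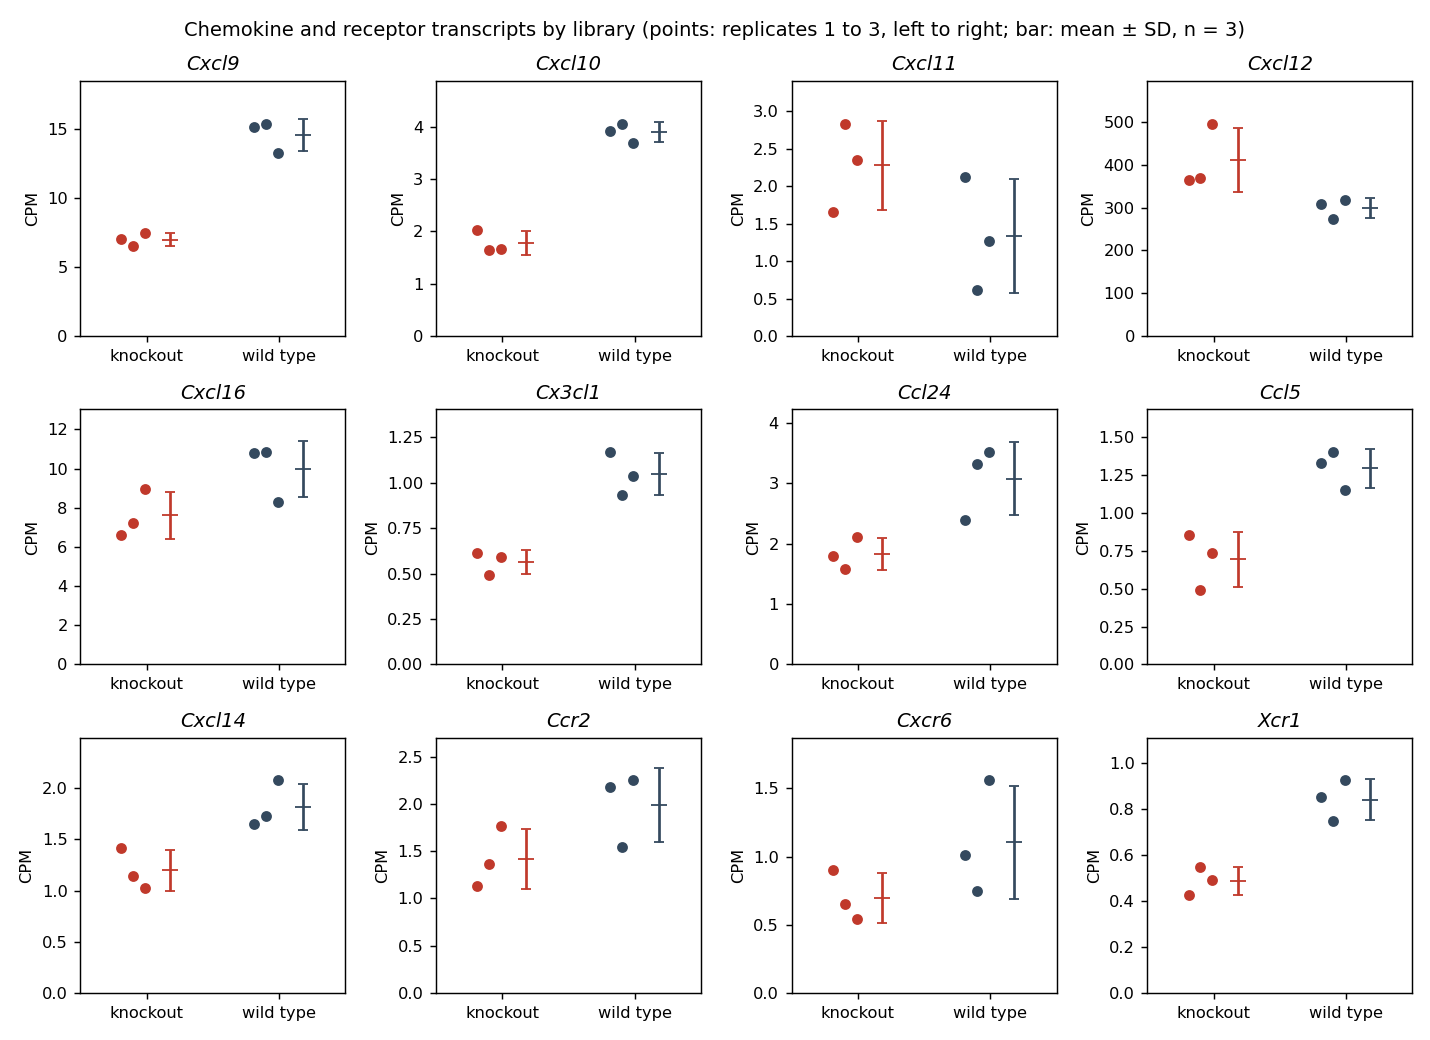
Level in CPM (vertical axes, from 0) of 12 members in each library, with knockout on the left and wild type on the right of each panel. Points are replicates 1 to 3 and bars the mean ± SD (n = 3). For Cxcl9 the knockout libraries lie at 6.55 to 7.46 CPM and the wild type libraries at 13.3 to 15.4 CPM, whereas for Ccr2 the groups overlap, at 1.14 to 1.77 CPM in knockout livers and 1.54 to 2.25 CPM in wild type livers.

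The signals known to induce these ligands were read from a list of 20 cytokine, receptor and transcription factor genes, 18 of them tested. None was called by edgeR. At unadjusted p-values under 0.05, 3 were lower and 0 higher, against 7.32% lower and 8.04% higher over all tested genes. The median log2 fold change of the list was -0.07, against 0.00 over all tested genes. Tnfrsf1a, a receptor for tumour necrosis factor, was at -0.29 ± 0.09 (SE, edgeR adjusted p = 0.193) and Irf8, a factor of macrophages and dendritic cells, at -0.39 ± 0.16 (SE, edgeR adjusted p = 0.289). Ifng itself had 0, 1 and 1 counts in knockout livers and 1, 0 and 0 in wild type livers, so its level could not be compared at this depth. Its receptor genes Ifngr1 and Ifngr2 averaged 20.1 and 20.2 CPM in knockout livers and 21.0 and 20.2 CPM in wild type livers.

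Among the homeostatic CXC ligands, Cxcl12 was higher and Cxcl14 lower in all knockout libraries than in any wild type library, neither past the threshold. Of all tested genes, 10.6% lay above in this way and 10% below. Cxcl12 retains progenitor cells and leukocytes in tissues and acts on Cxcr4 and on the scavenging receptor Ackr3, listed here under its older symbol Cxcr7. Cxcl12 stood at 365, 369 and 496 CPM in knockout livers, against 309, 272 and 317 CPM in wild type livers. Knockout replicate 3 was the highest, and the log2 fold change of 0.45 ± 0.14 (SE, edgeR adjusted p = 0.183) was 0.29 without it. Cxcl14, a chemokine of epithelia, had 1.42, 1.15 and 1.03 CPM in knockout livers, against 1.65, 1.73 and 2.08 CPM in wild type livers, a log2 fold change of -0.59 ± 0.24 (SE, edgeR adjusted p = 0.294). Cxcl13, which draws B cells into follicles, had 0.615, 0.327 and 1.81 CPM in knockout livers, spanning the 1.12 to 1.38 CPM of wild type livers. Its log2 fold change of -0.41 ± 0.52 (SE, edgeR adjusted p = 0.762) was -1.36 without knockout replicate 3.

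Cxcl12 was also the most abundant member per length in every group. Levels were divided by the annotated exon length of GENCODE vM21, which may differ from that of the transcripts the liver makes. On this scale Cxcl12 stood at 50.2 ± 9.1 CPM per kb in knockout livers and 36.6 ± 2.9 CPM per kb in wild type livers (SD, n = 3 each). Ccl9 followed at 18.9 ± 1.3 CPM per kb in knockout livers and 19.9 ± 1.9 CPM per kb in wild type livers, and Ccl6 at 4.15 ± 0.99 CPM per kb in knockout livers and 5.34 ± 0.53 CPM per kb in wild type livers. Cxcl9 had rank 5 in knockout livers, at 2.32 ± 0.15 CPM per kb, where its spread overlapped that of Cxcl16 at 2.52 ± 0.41 CPM per kb, and rank 4 in wild type livers, at 4.84 ± 0.39 CPM per kb.

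**Figure D2:**
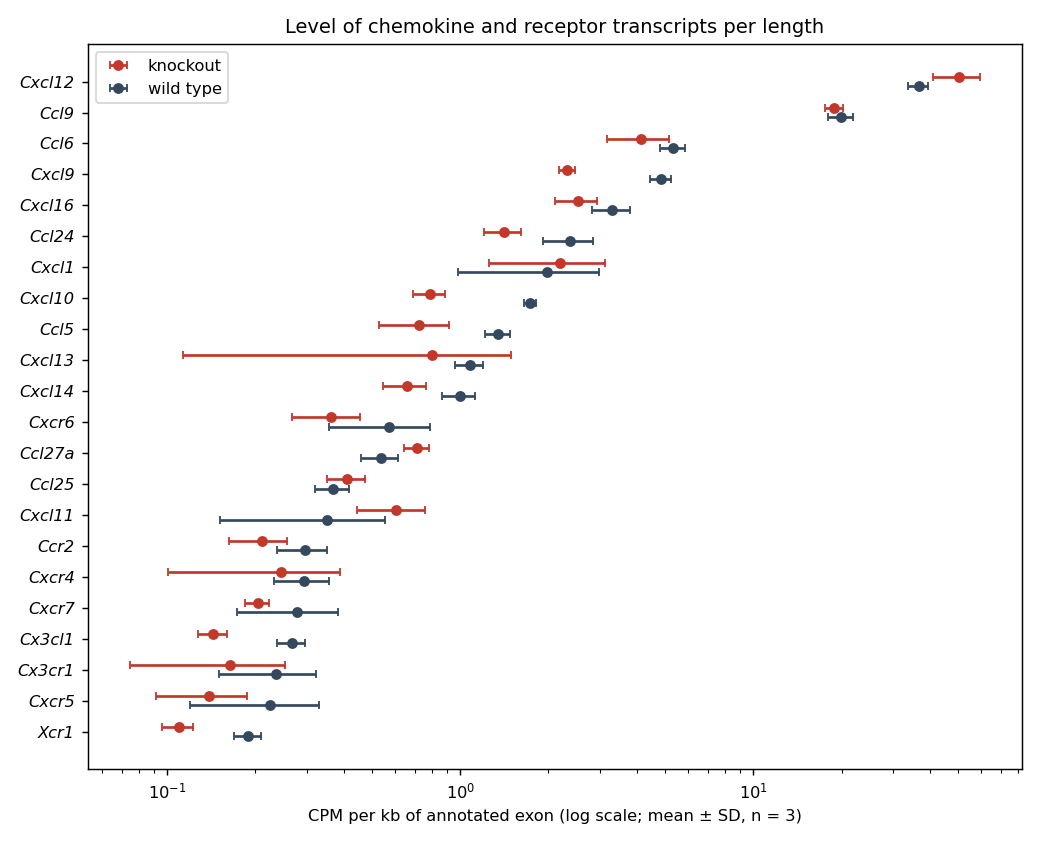
Level of 22 members with a computed change, in CPM per kb of annotated exon on a log axis, with knockout (red, upper point of each pair) and wild type (dark, lower point). Points are means and bars SD (n = 3). Cxcl12 and Ccl9 lead in both groups, at 50.2 and 18.9 CPM per kb in knockout livers and 36.6 and 19.9 CPM per kb in wild type livers.

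Both membrane-bound ligands were lower on average in the knockout livers without passing the threshold. Cx3cl1, or fractalkine, is anchored to endothelial and epithelial cells and binds Cx3cr1, the receptor of patrolling monocytes and many macrophages. It had 0.615, 0.491 and 0.589 CPM in knockout livers, against 1.17, 0.935 and 1.04 CPM in wild type livers, with no overlap. Of all tested genes, 10% likewise had every knockout value below wild type. Cx3cl1 reached 10 counts in 3 wild type but only 2 knockout libraries. The log2 fold change of Cx3cl1 was -0.87 ± 0.28 (SE, edgeR adjusted p = 0.196). Cxcl16, whose receptor Cxcr6 marks liver-resident T and NKT cells, had 6.63, 7.20 and 8.98 CPM in knockout livers, against 10.8, 10.8 and 8.31 CPM in wild type livers. Here knockout replicate 3 exceeded wild type replicate 3, and the log2 fold change was -0.39 ± 0.17 (SE, edgeR adjusted p = 0.312). Cxcl16 shares 552 exonic bases with Zmynd15 on the opposite strand, which stood at 3.69 ± 0.39 CPM in knockout livers and 2.93 ± 0.46 CPM in wild type livers (SD, n = 3 each).

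Of the inflammatory CC ligands, Ccl24 and Ccl5 were lower in all knockout libraries and the abundant Ccl9 differed least. Ccl24, an eosinophil attractant that binds Ccr3, had 1.8, 1.58 and 2.11 CPM in knockout livers, against 2.39, 3.32 and 3.52 CPM in wild type livers. Its log2 fold change was -0.74 ± 0.23 (SE, edgeR adjusted p = 0.186). Ccl5, a product of T and NK cells, had 0.852, 0.491 and 0.736 CPM in knockout livers, against 1.33, 1.40 and 1.15 CPM in wild type livers. For Ccl5 the log2 fold change was -0.89 ± 0.29 (SE, edgeR adjusted p = 0.201). Both gaps were free of overlap, as were those of 10% of all tested genes with knockout below, and neither passed the threshold. Ccl5 reached 10 counts in 3 wild type but only 2 knockout libraries.

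Ccl6 and Ccl9, a pair of related rodent ligands of Ccr1 made by macrophages and other myeloid cells, gave different sizes. Ccl6 had 7.57, 5.62 and 9.17 CPM in knockout livers, against 10.3, 8.51 and 9.92 CPM in wild type livers, a log2 fold change of -0.36 ± 0.19 (SE, edgeR adjusted p = 0.405). Ccl9 had 55.1, 62.1 and 55.5 CPM in knockout livers, against 53.9, 64.6 and 63.3 CPM in wild type livers, a log2 fold change of -0.07 ± 0.10 (SE, edgeR adjusted p = 0.783). Both overlapped between the groups. Ccl2, the main attractant of Ccr2-bearing monocytes, missed the count filter with 3, 3 and 6 counts in knockout livers, against 17, 11 and 9 counts in wild type livers. In the fit with no filter its log2 fold change was -1.65 ± 0.50 (SE, edgeR adjusted p = 0.165).

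Ccl25 and Ccl27a were the tested tissue ligands of the CC class, and both had positive log2 fold changes short of the threshold. Ccl25, which guides Ccr9-bearing cells to the gut and thymus, had 2.56, 3.44 and 3.19 CPM in knockout livers, against 2.55, 2.52 and 3.17 CPM in wild type livers, a log2 fold change of 0.16 ± 0.20 (SE, edgeR adjusted p = 0.773). It shares 204 exonic bases with the far more abundant Elavl1 on the opposite strand. Elavl1 stood at 41.3 ± 5.5 CPM in knockout livers and 39.7 ± 4.8 CPM in wild type livers (SD, n = 3 each). Ccl27a, a skin chemokine that binds Ccr10, had 1.51, 1.86 and 1.72 CPM in knockout livers, against 1.43, 1.07 and 1.33 CPM in wild type livers, a log2 fold change of 0.41 ± 0.24 (SE, edgeR adjusted p = 0.455). No knockout library of Ccl27a overlapped a wild type one, and 10.6% of all tested genes likewise had knockout above without overlap. Of the 50-base stretches of its annotated transcripts 45.0% also occur in transcripts of other genes, so its count is uncertain. Cxcl1 was the 1 neutrophil-attracting ligand with enough counts, at 2.65, 6.06 and 3.63 CPM in knockout livers, against 5.26, 1.64 and 4.21 CPM in wild type livers. Its libraries spread widely in both groups, and its log2 fold change was 0.15 ± 0.43 (SE, edgeR adjusted p = 0.906), turning to -0.23 without knockout replicate 2 and -0.22 without wild type replicate 2.

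**Figure D3:**
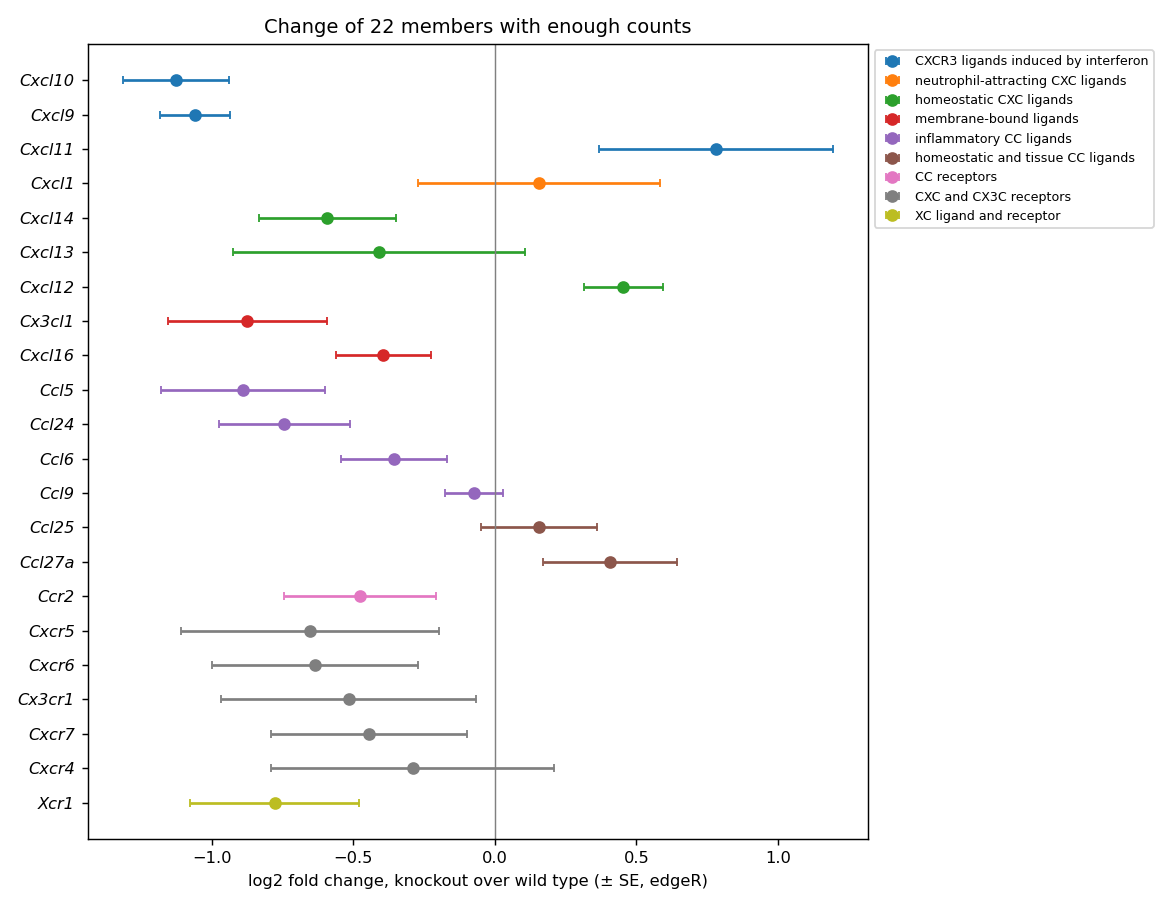
Log2 fold change, knockout over wild type, with its SE from edgeR (horizontal axis) for 22 members, coloured by role. Cxcl10 and Cxcl9 lie farthest to the left at -1.13 and -1.06, every receptor shown lies left of 0 with all 6 libraries, and Cxcl11, Cxcl12, Ccl27a, Ccl25 and Cxcl1 lie to the right.

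None of the 8 tested receptors passed the threshold, and all had a negative log2 fold change, from -0.78 to -0.29, although that of Cxcr4 was 0.15 without knockout replicate 1 and that of Cxcr7 turned to 0.086 in the fit with the clock score. Xcr1, the receptor of cross-presenting dendritic cells, was the only one without overlap, at 0.426, 0.546 and 0.490 CPM in knockout livers, against 0.850, 0.748 and 0.923 CPM in wild type livers. Of all tested genes, 10% had every knockout value below every wild type value. Xcr1 passed the filter through wild type, with 10 counts or more in 3 wild type but only 2 knockout libraries. Its log2 fold change was -0.78 ± 0.30 (SE, edgeR adjusted p = 0.265), at counts of 9, 10 and 10 in knockout livers, against 16 in each wild type liver. Its ligand gene Xcl1 had 2 counts in each knockout liver, against 1, 1 and 3 counts in wild type livers. Of 5 tested dendritic cell markers, 4 had a log2 fold change below 0 and 1 above, with a median of -0.47. None was called by edgeR. The 1 above 0 was Clec9a, at 0.15 ± 0.22, and Zbtb46 was at -0.02 ± 0.21 (SE, edgeR adjusted p = 0.799 and 0.975). Batf3 and Itgax reached 10 counts in 3 wild type libraries but in only 1 and 2 knockout libraries.

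Ccr2, the receptor of inflammatory monocytes, had 1.14, 1.36 and 1.77 CPM in knockout livers, against 2.18, 1.54 and 2.25 CPM in wild type livers, a log2 fold change of -0.48 ± 0.27 (SE, edgeR adjusted p = 0.437). The groups overlapped in wild type replicate 2, which was below knockout replicate 3.

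Cx3cr1 had 0.757, 0.327 and 1.13 CPM in knockout livers, against 1.38, 1.17 and 0.635 CPM in wild type livers, and Cxcr6 had 0.899, 0.655 and 0.540 CPM in knockout livers, against 1.01, 0.748 and 1.56 CPM in wild type livers. Their log2 fold changes were -0.52 ± 0.45 and -0.64 ± 0.37 (SE, edgeR adjusted p = 0.641 and 0.449). Cx3cr1 ran from -0.95 without knockout replicate 3 to -0.18 without knockout replicate 2, and was -0.05 in the fit with the clock score. Cxcr6 ran from -0.87 without wild type replicate 2 to -0.32 without wild type replicate 3. Cxcr4 averaged 0.444 ± 0.261 CPM in knockout livers and 0.532 ± 0.112 CPM in wild type livers, and Cxcr7 0.683 ± 0.065 CPM in knockout livers and 0.929 ± 0.349 CPM in wild type livers (SD, n = 3 each). The log2 fold changes of these receptors of Cxcl12 were -0.29 ± 0.50 for Cxcr4 and -0.45 ± 0.35 for Cxcr7 (SE, edgeR adjusted p = 0.839 and 0.593). Cxcr5, through which follicular B and T cells sense Cxcl13, averaged 0.464 ± 0.159 CPM in knockout livers and 0.748 ± 0.348 CPM in wild type livers (SD, n = 3 each). On the log2 scale it was at -0.65 ± 0.46 (SE, edgeR adjusted p = 0.547). Leaving out 1 library gave -1.0 (wild type replicate 2) to -0.30 (wild type replicate 1), and the clock score gave -0.15. The groups overlapped in all of these, at fewer than 30 counts in every library. Cxcr5 shares 110 exonic bases with the far more abundant Bcl9l on the opposite strand. Bcl9l stood at 58.0 ± 7.3 CPM in knockout livers and 46.9 ± 8.5 CPM in wild type livers (SD, n = 3 each).

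Taken over the 23 members, 18 had a negative log2 fold change and the median was -0.45, against 49.8% of all tested genes below 0. By p-values before adjustment, 8 were lower and 1, Cxcl12, was higher at 0.05, where 7.32% of all tested genes were lower and 8.04% higher. The counts moved to 5 lower and 2 higher without wild type replicate 1, and to 5 lower and 1 higher with DESeq2. They were 3 lower and 2 higher when the clock score was a covariate, and 9 lower and 1 higher without knockout replicate 3. Median-of-ratios scaling, filterByExpr and limma-voom left them at 8 lower and 1 higher. In 7 members all knockout values lay below all wild type values, against 10% of tested genes, and in 2, Cxcl12 and Ccl27a, they lay above, against 10.6%. These counts describe the members that passed the filter and not all 59. The filter can favour genes that are scarce in 1 group, and Ccl5, Cx3cl1, Cx3cr1, Cxcl13 and Xcr1 reached 10 counts in 3 wild type libraries but in only 2 knockout libraries. The 16 members that would have passed in either group alone had a median of -0.40, with 11 below 0, and 5 of them were lower and 1 higher at 0.05 before adjustment.

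**Figure D4:**
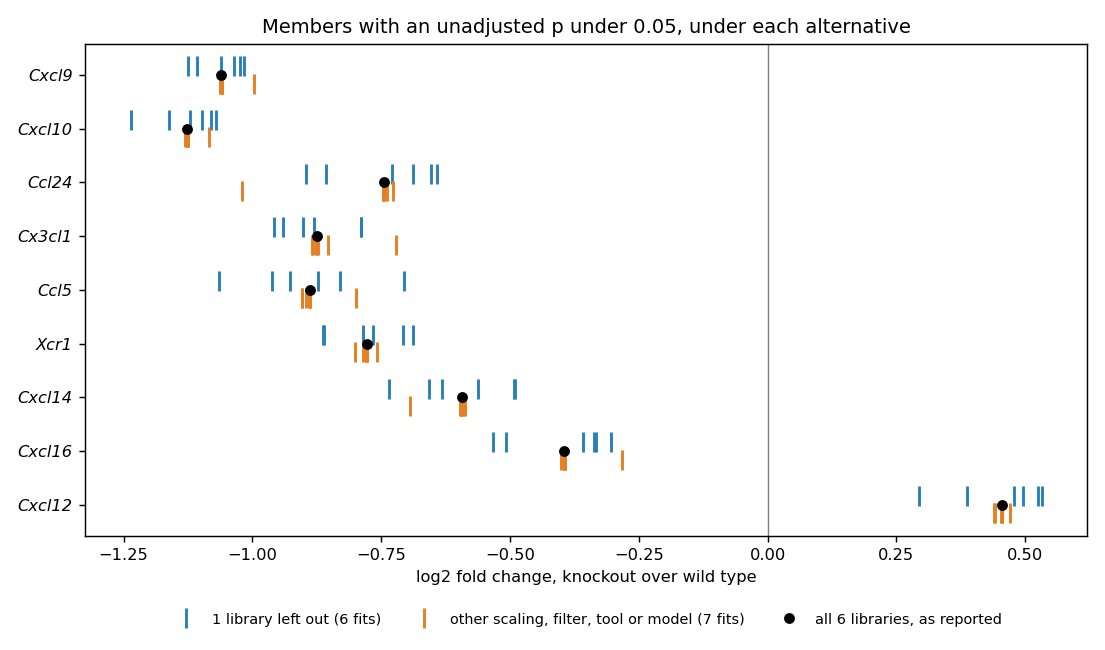
Log2 fold change, knockout over wild type (horizontal axis), of the 9 members with an unadjusted p under 0.05, with all 6 libraries (black), with 1 library left out (blue) and under the other alternatives (orange). No value crosses 0, and those of Cxcl9 stay between -1.12 and -1.0.

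No marker of leukocytes in the lists used here was called by edgeR, and the summed levels of some lists were lower in all knockout livers. The 10 Kupffer cell and macrophage markers all had lower levels at an unadjusted p under 0.05, where 7.32% of all tested genes did, and their summed level was 353 to 556 CPM in knockout livers and 672 to 757 CPM in wild type livers. The 15 T and NK cell markers summed to 6.47 to 7.38 CPM in knockout livers and 10.3 to 11.1 CPM in wild type livers. Of these 15, 7 were tested and 2, Cd3g and Gzma, lay lower with p under 0.05 before adjustment, against 7.32% of all genes tested. These 2 reached 10 counts in 3 wild type libraries but in only 0 and 1 knockout libraries. The filter thus kept them through the group where they were high, and their count cannot be set against that share. The 5 monocyte markers summed to 7.64 to 9.81 CPM in knockout livers and 13.4 to 14.98 CPM in wild type livers. Most of this sum came from the 2 tested, Plac8 and Fcgr1, which averaged 5.52 and 2.70 CPM in knockout livers and 8.07 and 5.25 CPM in wild type livers. Ly6c2 had 5, 5 and 5 counts in knockout livers, against 3, 7 and 9 in wild type livers. F13a1 had 2, 4 and 7 against 5, 2 and 5, and Chi3l3 had 1, 2 and 1 against 4, 4 and 2. No marker in these lists was at 0 in all libraries. Their part in the chemokine differences was not tested.

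The Kupffer cell markers were highest among the knockout livers in replicate 3, with sums of 423, 353 and 556 CPM in knockout replicates 1 to 3, all below wild type. All 39 ligands summed to 457 to 597 CPM in knockout livers and 391.5 to 436 CPM in wild type livers, a sum made up mostly of Cxcl12. The ligands without Cxcl12 summed to 92.9, 102 and 101 CPM in knockout livers, against 115, 119 and 119 CPM in wild type livers. Neither sum overlapped between the groups, and they lay in opposite directions. The sum without Cxcl12 includes Cxcl9, which averaged 7.0 CPM in knockout livers and 14.6 CPM in wild type livers. Its largest part, Ccl9, averaged 57.6 CPM in knockout livers and 60.6 CPM in wild type livers. Markers of sinusoidal endothelial cells, at 426 to 517 CPM in knockout livers and 455 to 470 CPM in wild type livers, and of stellate cells, at 257 to 375 CPM in knockout livers and 306 to 356 CPM in wild type livers, overlapped between the groups. The 8 neutrophil markers in the files summed to 2.18 to 2.65 CPM in knockout livers and 2.80 to 5.37 CPM in wild type livers, and the 7 dendritic cell markers to 10.1 to 11.3 CPM in knockout livers and 10.7 to 11.4 CPM in wild type livers. The 6 B cell markers summed to 3.73 to 4.64 CPM in knockout livers and 5.94 to 7.70 CPM in wild type livers, and the 5 cholangiocyte markers to 4.81 to 8.47 CPM in knockout livers and 5.75 to 9.52 CPM in wild type livers.

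**Figure D5:**
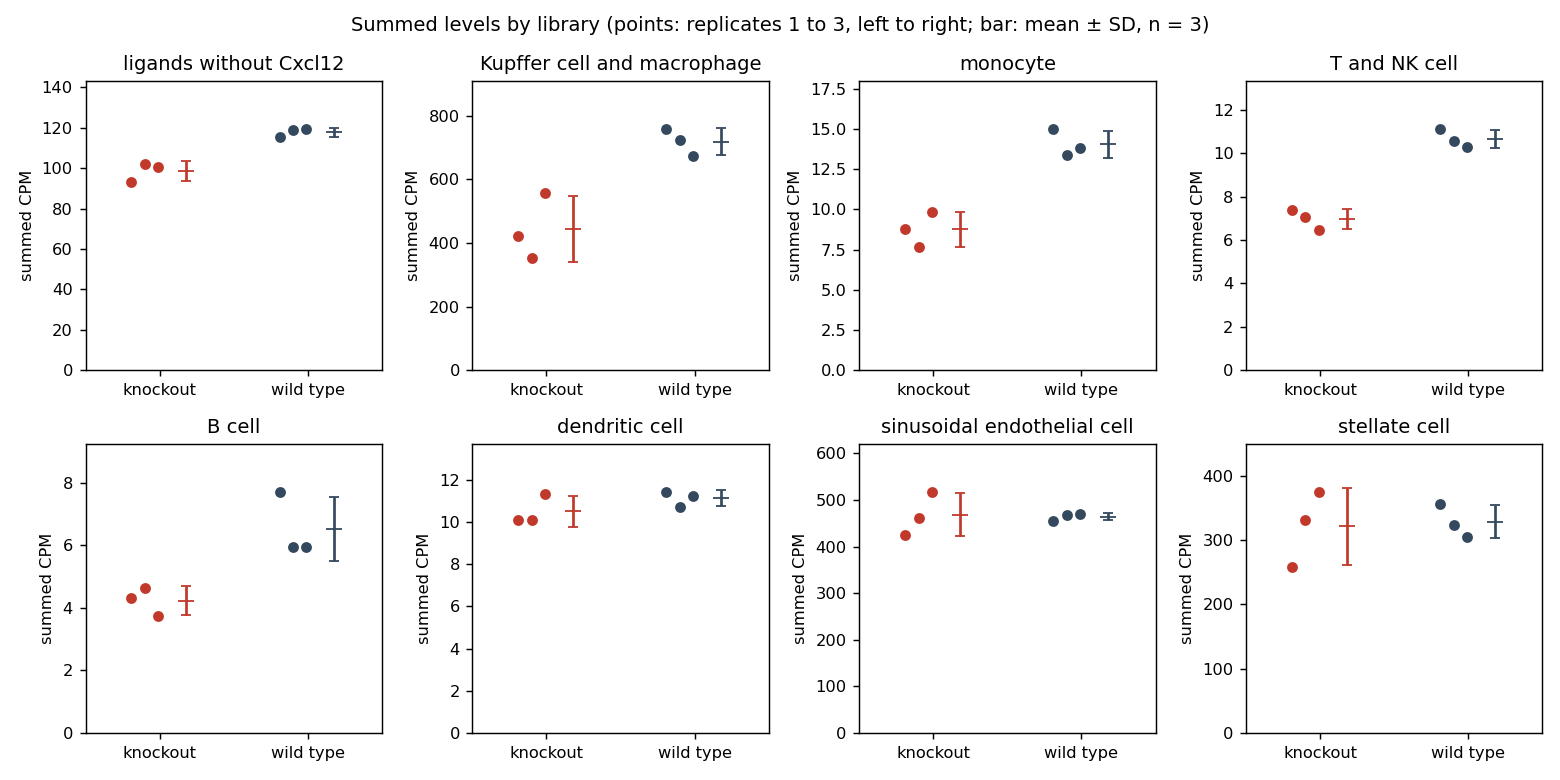
Summed CPM (vertical axes, from 0) of the chemokine ligands without Cxcl12 and of 7 lists of cell markers in each library, with knockout left of wild type. Points are replicates 1 to 3 and bars the mean ± SD (n = 3). Kupffer cell, monocyte and T and NK cell sums of the knockout libraries lie below those of the wild type libraries, as do those of the ligands and of the B cell markers.

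The machinery around the receptors was read from 3 further lists. Of 19 tested genes of chemokine receptor signalling, 0 were called by edgeR, 5 lay below and 0 above with p under 0.05 before adjustment (7.32% and 8.04% over all tested genes), and the median log2 fold change was -0.11. Rac2, a GTPase of leukocytes, stood at 4.98 ± 1.38 CPM in knockout livers and 9.59 ± 1.66 CPM in wild type livers (SD, n = 3 each), which is -0.94 ± 0.23 (SE, edgeR adjusted p = 0.12, and 0.00637 with DESeq2) on the log2 scale. Dock2, its leukocyte activator, was at -0.74 ± 0.19 and Elmo1, the partner of Dock proteins, at -0.54 ± 0.21 (SE, edgeR adjusted p = 0.136 and 0.271). The widely expressed G protein genes Gnai2 and Gnai3 averaged 97.8 and 136 CPM in knockout livers and 105 and 141 CPM in wild type livers.

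Of 5 tested genes among chemokines under other symbols and atypical receptors, which bind chemokines without G protein signalling, 0 were called by edgeR and 2 had a lower level with p under 0.05 before adjustment, against 7.32% of all tested genes. These were Darc, the chemokine-binding receptor of red cells and venules also called Ackr1, at -0.89 ± 0.28, and Ccrl2, which binds chemerin, at -0.69 ± 0.22 (SE, edgeR adjusted p = 0.188 and 0.193). The scavenger Ccbp2, also called Ackr2, averaged 2.72 CPM in knockout livers and 2.73 CPM in wild type livers. Of 3 tested protease genes that cut or shed chemokines, 0 were called and 0 had an unadjusted p under 0.05. Dpp4, which trims Cxcl10 and Cxcl12 among others, stood at 178 ± 13 CPM in knockout livers and 169 ± 8 CPM in wild type livers (SD, n = 3 each).

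The remaining members were at or near the limit of detection. Ccr3, Ccr7, Ccr9 and Cxcr3 reached 10 counts in 1 or 2 libraries, as Ccl2 did. Ccr3, the eosinophil receptor for Ccl24, had 5, 6 and 18 counts in knockout livers, against 3, 8 and 8 in wild type livers. Ccr7, which guides dendritic and T cells to lymph nodes, had 3, 8 and 8 counts in knockout livers, against 23, 8 and 3 in wild type livers. Ccr9 had 8, 10 and 10 counts in knockout livers, against 9, 4 and 9 in wild type livers. In the fit with no filter the log2 fold changes of Ccr3, Ccr7 and Ccr9 were 0.54 ± 0.60, -0.87 ± 0.68 and 0.27 ± 0.48 (SE, edgeR adjusted p = 0.734, 0.649 and 0.861). The other 19 genes with any count stayed under 10 in every library. They were the ligand genes Ccl1, Ccl3, Ccl4, Ccl7, Ccl8, Ccl11, Ccl12, Ccl17, Ccl22, Cxcl2, Cxcl5 and Xcl1 and the receptor genes Ccr1, Ccr1l1, Ccr4, Ccr6, Ccr8, Ccr10 and Cxcr2.

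The 12 genes listed at 0 in all libraries were Ccl19, Ccl20, Ccl21a, Ccl21b, Ccl21c, Ccl26, Ccl27b, Ccl28, Cxcl3, Cxcl15, Cxcl17 and Cxcr1. A count of 0 allows up to 3 counts, or 0.142 to 0.164 CPM in a knockout library and 0.140 to 0.173 CPM in a wild type library, counting error only. This limit does not hold for the copied genes among them, since reads that fit several places were not counted. Of the 50-base stretches in their annotated transcripts, 52.0% of those of Ccl19, 71.6% of those of Ccl21a, 100% of those of Ccl21b and 98.1% of those of Ccl27b also occur in transcripts of other genes. Ccl19 and Ccl21 are the lymphoid ligands of Ccr7, and their listed 0 gives no limit on their level here.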

How the data were processed

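Per the labels' protocols, total RNA of liver was made into libraries with the Illumina TruSeq RNA kit. The authors deposited raw counts of reads for each gene symbol in a file for each library. Tools listed in the submitters' processing notes, without their roles, are HTSeq, TopHat2 2.0.8b and CASAVA 1.8.2, and the builds are mm9 and hg19. The annotation and strand setting were not given in the sources used here. The 5 rows that name no gene were left out. Reads outside genes made up 9.65% to 12.5% of uniquely placed reads and reads fitting several genes 0.594% to 0.662%. Alignments of multiply placed reads numbered 1.49 to 2.65 per gene count and are not in the gene counts, which lowers genes with near-identical copies.

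Genes with at least 10 counts in 3 or more libraries (12594) entered edgeR 4.0.16 under R 4.3.3 (TMM, quasi-likelihood, genotype as only term, 2-sided, Benjamini-Hochberg over all genes tested, threshold 0.05), and CPM uses the TMM library sizes. The SE is the log2 fold change divided by the root of the F statistic. Alternatives were median-of-ratios scaling, no filter, filterByExpr, DESeq2 1.42.0, limma-voom (limma 3.58.1), the replicate block, the clock score as a covariate and each library left out. Every tested member but 1, which is not reported here, is named, and 3 at most per pathway list by lowest p (1 gene of these lists is likewise left out). Alb, Gnai2, Gnai3, Ifngr1, Ifngr2, Ifng, Ccbp2 and Dpp4 fall outside it and were picked with their values already seen. Members, lists and this rule were chosen with earlier results of these data known. Promoters are from RefSeq (GRCm38.p6). Lengths, overlaps and shared stretches are from GENCODE vM21 (GRCm38). Cxcr7 was matched as Ackr3. Libraries of a group differed by 23.3 to 43.1 in chi-square per degree of freedom, so none is a copy.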

Additional observations from a re-analysis of the deposited data

How the results depend on the processing

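The count of chemokine genes called lower was 1, Cxcl9, under the median-of-ratios and filterByExpr alternatives and limma-voom, 2 (Cxcl9 and Cxcl10) with no filter and with DESeq2, 0 with the replicate block, 0 with the clock score covariate and 0 to 1 with 1 library left out. No chemokine gene was called higher in any of the 13 alternatives. Over all genes 27 were called, against 133 with no filter, 429 with DESeq2, 1 with the replicate block, 1 with the clock score covariate and 3 to 34 with 1 library left out (3 without knockout replicate 2). The cause of these shifts was not tested, beyond the loss of samples or degrees of freedom that some bring. The clock score was higher in every knockout library than in any wild type one, so its fit only partly separates it from genotype. Same-numbered libraries did not deviate together (correlations of -0.085, -0.094 and -0.039), so the numbers do not pair them; Cxcl9 under the block was at -1.06 ± 0.14 (SE, edgeR adjusted p = 0.0813).

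The direction of the log2 fold change turned in 4 of 299 member values. Cxcl1 ran from -0.23 to 0.51 with 1 library left out, and Cxcr4 from -0.57 to 0.15. Cxcr7 was 0.086 with the clock score covariate, which also moved the median of the 23 members to -0.28. At 10 to 30 counts per library, as for most receptors, the depth limits what can be seen.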
